A study of Mus musculus with 10 samples.

Results

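The 5 wild-type libraries of a mouse skeletal muscle series were described gene by gene, without reference to the other genotype. They were found by their column names, and they make up 5 of the 10 samples. Each holds RNA of the biceps femoris, which lies in the hindlimb, taken from male mice of strain C57BL/6J at an age of 5 weeks. The mice ate normal chow and had gone without food for 16 hours overnight. The wild-type mice carry no transgene, and the study set them against mice that overexpress Zfp407, which are not analysed here. The labels name separate mice, but the columns name the group and not the mouse, so the libraries are numbered 1 to 5 after the columns. With 1 group no comparison of groups was made, and every spread given is that among these 5 libraries. RNA was drawn from whole muscle homogenate, so every cell type in the tissue contributes. Total counts ran from 13530367 to 17814900 over 15883 genes, and between 12636 and 13571 genes had at least 10 counts. Between libraries, 1 gene is compared by CPM, its count per 1000000 counts of the TMM-adjusted library size, which does not allow for gene length. Zfp407, on chromosome 18, had 19.1, 23.3, 20.7, 20.4 and 21.2 CPM in libraries 1 to 5.

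Skeletal muscle is built of fibres that differ in the myosin heavy chain they use. Type I fibres carry Myh7 and are slow and oxidative. Type IIa fibres carry Myh2, IIx fibres Myh1 and IIb fibres Myh4, in order of rising speed and reliance on glycolysis. Slow and fast fibres also use different genes for troponins, myosin light chains, calsequestrin and the calcium pump. During a fast, muscle turns from glucose to fatty acids and breaks down protein to supply amino acids, under FoxO and glucocorticoid control.

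Promoters of 4 of the 10 highest nuclear protein-coding genes are shown first, because genes of this tissue are classic targets of serum response factor, MEF2 and the MyoD family. Of the 10, 8 had a promoter in the RefSeq table, and the 4 printed are those whose RefSeq start lay within 250 bases of the GENCODE start. Each line gives the 100 bases before the RefSeq start of transcription (GRCm38.p6, 5′ to 3′ on the strand of the gene), with matches to the searched motifs in capitals. These are TATAAA, the E-box CAGCTG that MyoD family proteins bind, and the CArG box of serum response factor.
Acta1 (skeletal actin, chr8:123894776-123894875, minus strand): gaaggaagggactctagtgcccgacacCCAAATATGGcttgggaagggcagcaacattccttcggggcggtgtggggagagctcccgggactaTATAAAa
Myh4 (type IIb myosin, chr11:67237712-67237811, plus strand): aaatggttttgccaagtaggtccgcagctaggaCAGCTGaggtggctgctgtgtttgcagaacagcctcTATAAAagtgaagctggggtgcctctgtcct
Atp2a1 (fast calcium pump, chr7:126463074-126463173, minus strand): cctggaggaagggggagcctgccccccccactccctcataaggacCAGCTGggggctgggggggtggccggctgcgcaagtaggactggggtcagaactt
Pvalb (parvalbumin, chr15:78206401-78206500, minus strand): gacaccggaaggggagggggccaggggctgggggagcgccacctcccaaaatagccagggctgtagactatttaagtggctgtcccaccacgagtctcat

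Acta1 held a CArG box and TATAAA, Myh4 held CAGCTG and TATAAA, Atp2a1 held CAGCTG, and the Pvalb window held none of the 3. In the 4 windows not printed, that of Mylpf held CAGCTG, that of Myl1 held TATAAA on the other strand, and those of Ckm and Aldoa held none. Of the 100 highest nuclear protein-coding genes by level, 73 had a promoter in the RefSeq table. CAGCTG, which reads the same on both strands, lay within 250 bases before the start in 38.4% of these and in 12.3% of all 10773 measured genes with a promoter there. The CArG box was found in 8.22% against 1.22%. The MEF2 site was found in 12.3% against 1.81%, and TATAAA in 15.1% against 7.02%. These are matches of letters, not measured binding, and the MEF2 site is rich in A and T as TATAAA is, so matches of the 2 can overlap. All were sought on both strands. These shares include RefSeq starts further than 250 bases from the GENCODE start.

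Contractile and calcium-handling genes of fast fibres, with mitochondrial transcripts, headed the ranking of protein-coding genes by level. Of the 25 highest genes of any type, 20 were protein-coding, and 8 were mitochondrially encoded, coding or not. Levels of the non-coding ones are not given here. Levels between genes are given as length-scaled levels: counts per kilobase of exon, scaled so that the genes of each library sum to 1000000, after leaving out 3 dominant rows described further on. Acta1, the actin of the thin filament, was the highest nuclear protein-coding gene, at 28454, 30847, 37868, 31362 and 37382 in libraries 1 to 5, a mean of 33183 ± 4205 (SD, n = 5). Below it stood Mylpf, the regulatory light chain of fast myosin, at 24065 ± 3698, Myh4 at 23946 ± 4185 and Tnnt3, fast troponin T, at 22468 ± 2013 (SD, n = 5). The libraries of Mylpf, Myh4 and Tnnt3 overlapped, so their order was not separated by the spread, while the lowest Acta1 library lay below the highest Myh4 library.

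The next nuclear genes were Pvalb, the calcium buffer that speeds relaxation of fast fibres, at 17961 ± 2046 and Myl1, the fast alkali light chain, at 14013 ± 2166 (SD, n = 5). Ckm, muscle creatine kinase, which regenerates ATP from phosphocreatine, stood at 10160.4 ± 1155 and Tnni2, fast troponin I, at 10056 ± 879. Aldoa, the aldolase of muscle glycolysis, reached 9079 ± 1049.8 and Atp2a1, the fast calcium pump of the sarcoplasmic reticulum, 8452 ± 1472. They were followed by Actn3, the Z-disc actinin of fast fibres (6899 ± 825), Eno3, muscle enolase (6354 ± 1299), Tpm1, a tropomyosin (5737 ± 1022), and Mybpc2, fast myosin-binding protein C (5111 ± 748). Actc1, the actin of heart and of developing skeletal muscle, took place 20 among protein-coding genes. Its length-scaled level was 2459.7, 3504, 6271, 6274 and 4852 in libraries 1 to 5, the widest relative spread among the 25 highest genes. Library 1 was lowest in Actc1 and in Acta1.

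**Figure D1:**
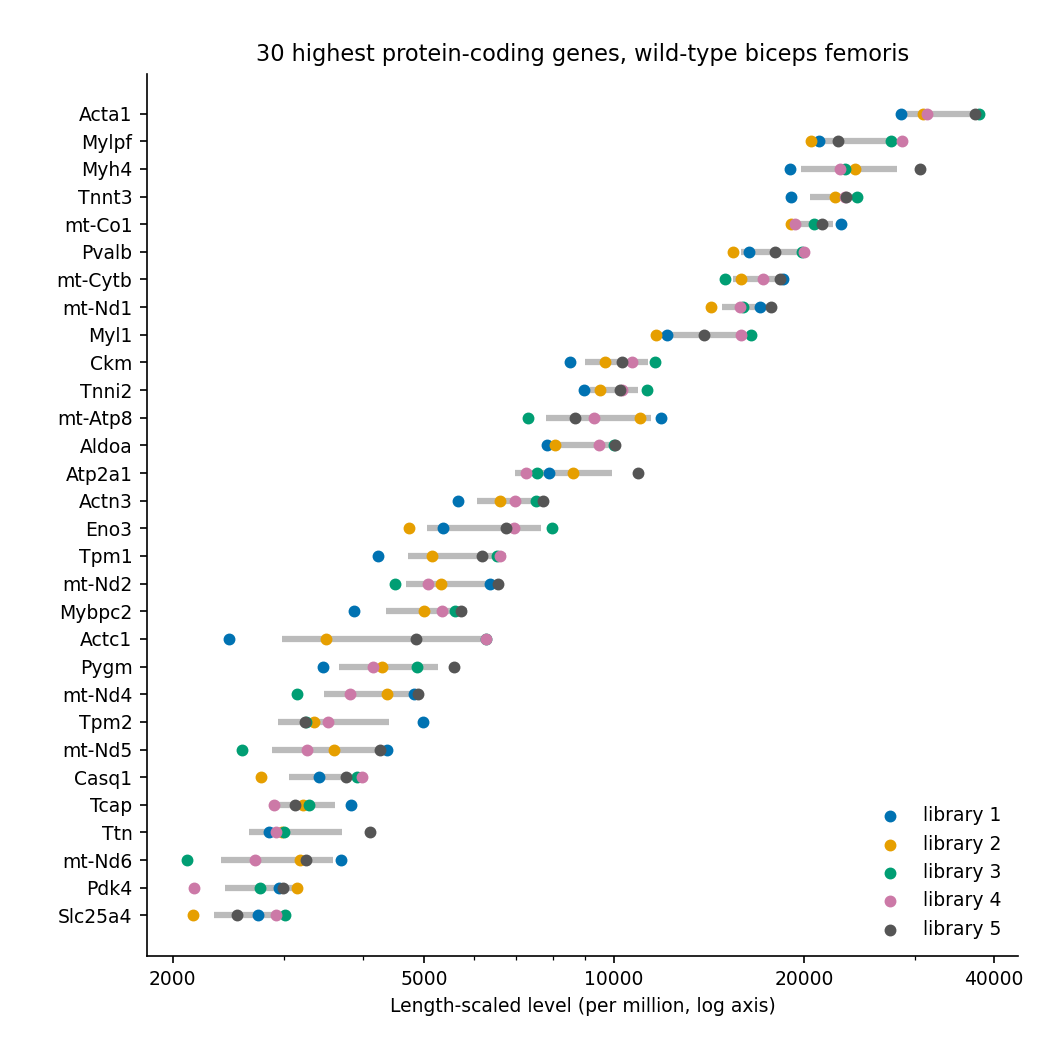
Length-scaled level (x axis, log scale) of the 30 protein-coding genes of highest mean level outside Lars2; each point is 1 wild-type library, coloured by library, and the grey bar spans the mean ± SD of the 5. Acta1 leads from 28454 to 37868, and Actc1 spreads from 2459.7 to 6274.

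Of 14298 protein-coding genes, 53 had a mean length-scaled level of at least 1000, 585 of at least 100 and 5254 of at least 10, and 2657 lay under 1. By share of counts, which favours long transcripts, titin came first. Ttn, the molecular spring of the sarcomere with 116825 bases of exon, took 12.2, 12.2, 12.2, 12.5 and 15.4% of the counts outside the 3 dominant rows, and library 5 was highest. Of all counts titin took 8.04, 8.66, 9.80, 10.3 and 13.2%. Neb, nebulin of the thin filament, took 2.21% and Myh4 5.02% of these counts on average. The 10 highest genes by share held 38.9% together: Ttn, mt-Rnr2, Myh4, Neb, Acta1, mt-Rnr1, Tpm1, Tnnt3, mt-Co1 and Ckm. In each library 3 genes held 25% of these counts, 22 to 34 genes held 50% and 2855 to 3265 held 90%. Libraries 4 and 5 were the most concentrated, with 22 and 23 genes at 50% against 31 to 34 in the others.

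The deposited gene types put 84.6 to 87.5% of all counts in protein-coding genes. That share contains Lars2, which is filed as protein-coding and encodes the mitochondrial leucyl-tRNA synthetase. Lars2 alone took 29.4, 25.4, 17.2, 16.1 and 12.4% of all counts in libraries 1 to 5. With Gm15564, filed as antisense, and Gm15662, filed as an unprocessed pseudogene, the 3 rows took 33.9, 29.3, 19.9, 18.2 and 14.3%. The plan set these 3 rows apart as resembling ribosomal RNA. Whether the reads counted for Lars2 come from its mRNA was not tested, so the protein-coding share need not be all mRNA. The share was 2.36 times as large in library 1 as in library 5. Gm15564 made up 96.4% of the antisense counts and Gm15662 99.2% of the unprocessed pseudogene counts. The antisense share was 1.79 ± 0.610% with the 3 rows and 0.0831 ± 0.00766% without them, and that of unprocessed pseudogenes was 1.28 ± 0.496% and 0.0134 ± 0.00102% (SD, n = 5). Protein-coding genes held 85.5 ± 1.63% without them. The 3 rows are left out of the length-scaled levels and of the shares of families, while shares of gene types are of all counts unless stated.

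**Figure D2:**
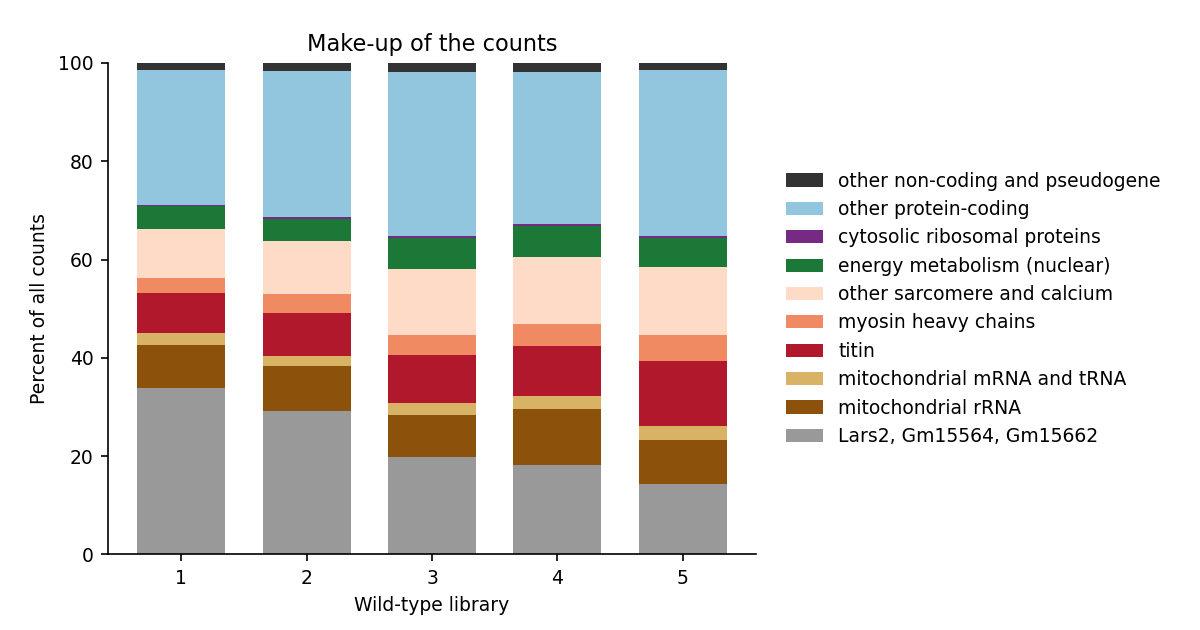
Percent of all counts (y axis) in 10 classes of genes that do not overlap, stacked for each of the 5 wild-type libraries (x axis). The grey share of Lars2, Gm15564 and Gm15662 runs from 14.3 to 33.9%, and titin from 8.04 to 13.2%.

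Mitochondrial ribosomal RNA was the largest non-coding class after that. The 2 mitochondrial rRNA genes held 8.74, 9.08, 8.57, 11.4 and 9.02% of all counts in libraries 1 to 5, highest in library 4. Outside the 3 rows they held 13.2, 12.8, 10.7, 13.9 and 10.5%, and library 4 was then close to library 1. Among nuclear non-coding genes, long intergenic RNAs held 0.911 ± 0.132% of all counts and 1.18 ± 0.105% of those outside the 3 rows (SD, n = 5). Malat1, a nuclear-retained RNA, supplied 61.96% of them at 5615 ± 531 CPM, H19, the imprinted RNA of growing muscle, 13.6%, and Neat1, the scaffold of paraspeckles, 9.97%. H19 had 1103, 1273, 1403, 1606 and 707 CPM in libraries 1 to 5, lowest in library 5. Rn7sk, the RNA that restrains elongation factor P-TEFb, made up 98.2% of the miscellaneous RNA counts. Gm23935, a row of 57 bases filed as a microRNA, held 98.1% of that class, while the muscle microRNA rows Mir1a-1 and Mir133a-2 had 87 and 59 counts in all. Nctc1, a muscle RNA from the H19 and Igf2 region, led the processed transcripts at 83.8 ± 9.47 CPM (SD, n = 5).

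Mitochondrially encoded genes together took 16.9, 15.9, 13.6, 17.1 and 13.7% of the counts outside the 3 rows, of which the rRNA genes held 12.2 ± 1.54% (SD, n = 5). The mRNAs they encode differed widely in level. Length-scaled means were 20680.5 ± 1538 for mt-Co1 of complex IV, 16999.5 ± 1538 for mt-Cytb of complex III and 16172 ± 1326 for mt-Nd1 of complex I (SD, n = 5). In contrast, mt-Co2 stood at 2.11 ± 0.521, mt-Co3 at 6.32 ± 2.52, mt-Atp6 at 24.5 ± 4.93 and mt-Nd3 at 161 ± 19.4, although all are transcribed from the same heavy-strand promoter region. The 4 low genes have sequence that other annotated transcripts also carry. Of all 50-base words of mt-Co2, 100% were also found in another gene, as were 99.9% for mt-Co3, 99.5% for mt-Atp6 and 97.99% for mt-Nd3. The share was 0% for mt-Cytb and mt-Nd1, 8.19% for mt-Nd2 and 51.1% for mt-Co1. In between stood mt-Nd4 of complex I, at 4212 ± 735, with 62.2% of its words shared. How the counting treated reads with more than 1 match is not given in the sources used here, and its part in these levels was not tested.

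By family, genes of the contractile apparatus held more counts than any other nuclear group listed. The list of 27 sarcomere and Z-disc genes held 20.3 ± 1.74% of the counts outside the 3 rows, mostly titin, and the myosin heavy chains held 5.41 ± 0.549% (SD, n = 5). Actins held 2.07 ± 0.249%, myosin light chains 1.94 ± 0.321%, troponins 1.79 ± 0.139% and tropomyosins 1.69 ± 0.189%. The 21 calcium-handling genes held 2.96 ± 0.136%. Glycolysis and glycogen genes (24 listed) held 3.38 ± 0.373%, against 0.537 ± 0.0275% for 19 citrate cycle genes and 0.336 ± 0.0753% for 17 genes of fatty acid oxidation. Nuclear genes of the respiratory chain and ATP synthase held 1.45 ± 0.138%. Cytosolic ribosomal protein genes, a large class in growing cells, held 0.529 ± 0.0752%, about the same as the collagens at 0.554 ± 0.109% (SD, n = 5). Proteasome subunits held 0.386 ± 0.0441% and heat shock proteins 0.386 ± 0.0258%. Rows of overlapping lists are counted in each, so these shares do not add up.

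Among the scaffold genes of the sarcomere, Tcap, which caps titin at the Z-disc, had a length-scaled mean of 3271 ± 347, close to 3172 ± 530.4 for Ttn itself and above 2386 ± 427 for Neb (SD, n = 5). Myot, a Z-disc protein, had 1435 ± 84.7 and Des, the intermediate filament desmin, 1197 ± 74.3. Of the proteins that store and release calcium, Casq1, the fast calsequestrin, stood highest after Pvalb and Atp2a1, at 3565 ± 504. Srl, sarcalumenin, a calcium-binding protein of the sarcoplasmic reticulum, had 986 ± 81.2, Ryr1, the release channel, 467 ± 115 and Cacna1s, its voltage sensor, 342 ± 25.7 (SD, n = 5). Each Ryr1 library lay above the Cacna1s level of the same library. The developmental list was near 0 apart from Actc1. Myl4, the embryonic light chain, had 3.37 ± 1.12, Myh3 4.16 ± 3.73 and Ncam1, an adhesion molecule of denervated and regenerating fibres, 2.30 ± 0.769 (SD, n = 5).

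Within energy metabolism, aldolase, enolase and phosphorylase stood highest among the glycolysis and glycogen genes. The percent of words also found in another gene, sought as for the mitochondrial genes, was uneven here. It was 68.0% for Pgk1, 34.4% for Pkm and 27.8% for Gapdh, with length-scaled means of 384, 1222 and 988. It was 13.5% for Aldoa, 0.460% for Pygm and 0% for Eno3. The part of shared sequence in this order was not tested. Pygm, the muscle glycogen phosphorylase that releases glucose from glycogen, had a length-scaled mean of 4473 ± 800.0, and Pfkm, muscle phosphofructokinase, 1899 ± 314 (SD, n = 5). Pgam2, muscle phosphoglycerate mutase, had 2647 ± 767 and Ldha, the lactate dehydrogenase subunit of fast fibres, 1403 ± 184. Ldhb, the subunit of oxidative tissue, had 73.03 ± 35.7, with 131, 70.2, 76.1, 45.5 and 42.2 in libraries 1 to 5 and library 1 highest. Fatty acid genes stood lower. Cd36, a fatty acid transporter, had 527 ± 125 and Fabp3, a fatty acid carrier of muscle, 380.4 ± 115. Acadl, the long-chain acyl-CoA dehydrogenase, had 278 ± 25.2. Of the words of Fabp3 37.3% were shared, against 0% for Cd36 and Acadl, and the part of this in its level was not tested. Among genes of phosphate transfer and oxygen supply, Car3, a carbonic anhydrase of muscle, reached 2226 ± 649.8, Ckmt2, mitochondrial creatine kinase, 1299.8 ± 134 and Mb, myoglobin, 1162 ± 285. Cpt1b, the gate of fatty acid entry into muscle mitochondria, stood at only 6.67 ± 0.805. Of its exon bases 81.4% lie also in the annotated gene Gm44502 on the same strand, and the part of this overlap in its count was not tested.

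Genes of glucose uptake and insulin signalling, a list added after other values had been seen, ran from 209.8 ± 27.4 for Slc2a4 to 3.85 ± 1.17 for Ppard, a lipid-sensing nuclear receptor, on the length-scaled level (SD, n = 5). Slc2a4, the insulin-responsive transporter GLUT4, had 188, 164, 215, 195 and 214 CPM in libraries 1 to 5. By length-scaled level it took place 247 among protein-coding genes. Slc2a1, the transporter GLUT1, had 5.90 ± 2.69 (SD, n = 5), and every Slc2a4 library lay above every Slc2a1 library. Akt2, the Akt kinase of insulin-responsive tissue, had 59.6 ± 6.26 and Akt1 26.8 ± 3.32. The insulin receptor Insr had 27.5 ± 3.67, its substrate Irs1 17.9 ± 2.51 and Tbc1d4, a brake on GLUT4 vesicles, 20.6 ± 1.13. Prkaa2, a catalytic subunit of AMP kinase, stood at 139 ± 27.01 and Prkag3, its regulatory subunit of glycolytic muscle, at 39.1 ± 11.6 (SD, n = 5).

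The fibre make-up by transcript was almost wholly type IIb. On the length-scaled level, Myh4 held 90.01, 93.6, 94.7, 94.1 and 95.1% of the 9 listed myosin heavy chain genes in libraries 1 to 5. Myh1 held 6.38, 5.19, 4.04, 5.30 and 4.25%, Myh2 2.74, 1.12, 1.06, 0.607 and 0.580% and Myh7 0.790, 0.0645, 0.132, 0.0108 and 0.0353%. The order Myh4, Myh1, Myh2, Myh7 held in each of the 5 libraries, and the ranges of adjacent genes did not overlap except those of Myh2 and Myh7. Library 1 was lowest in Myh4 and highest in the other 3. Its Myh7 share was the value of 5433 counts, against 112 counts in library 4. Without library 1 the mean share of Myh7 was 0.0607% in place of 0.207 ± 0.329%, and that of Myh2 0.841% in place of 1.22 ± 0.883% (SD, n = 5). The embryonic gene Myh3 and the neonatal gene Myh8 held 0.00670 to 0.0507% and 0.00592 to 0.0105%, and the extraocular gene Myh13, the cardiac gene Myh6 and the slow-tonic gene Myh7b held at most 0.00831, 0.00279 and 0.00812%. Myosin genes share sequence, with 32.1% of the 50-base words of Myh1, 28.9% of Myh2 and 18.9% of Myh4 found in another gene, so the smaller shares are uncertain.

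The slow and fast partner genes gave the same picture. Slow troponin I, Tnni1, made up 1.03, 0.0973, 0.140, 0.0260 and 0.0338% of its pair with Tnni2 in libraries 1 to 5, and slow troponin T, Tnnt1, made up 1.21, 0.134, 0.210, 0.0384 and 0.0485% of its pair with Tnnt3. For the slow regulatory light chain Myl2 against Mylpf the share was 1.96, 0.334, 0.307, 0.0648 and 0.0810%, and for the slow essential light chain Myl3 against Myl1 it was 1.55, 0.525, 0.531, 0.129 and 0.157%. Library 1 was highest and libraries 4 and 5 were lowest in all 4 of these pairs. The slow calcium pump Atp2a2 held 0.301 to 1.51% of its pair with Atp2a1, the cardiac and slow calsequestrin Casq2 0.563 to 1.57% of its pair with Casq1, and the slow Z-disc protein Myoz2 0.989 to 5.21% of its pair with Myoz1. The troponin C pair went the other way. Slow Tnnc1 held 97.1, 57.2, 89.97, 17.1 and 59.5% of its pair, and fast Tnnc2 had only 13.5 ± 6.49 on the length-scaled level (SD, n = 5), against 10056 ± 879 for Tnni2. Of the exon bases of Tnnc2, 74% lie also in Ube2c on the opposite strand, and reads of overlapping genes cannot be told apart where the counting strand is not stated. The part of this overlap in the Tnnc2 count was not tested.

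**Figure D3:**
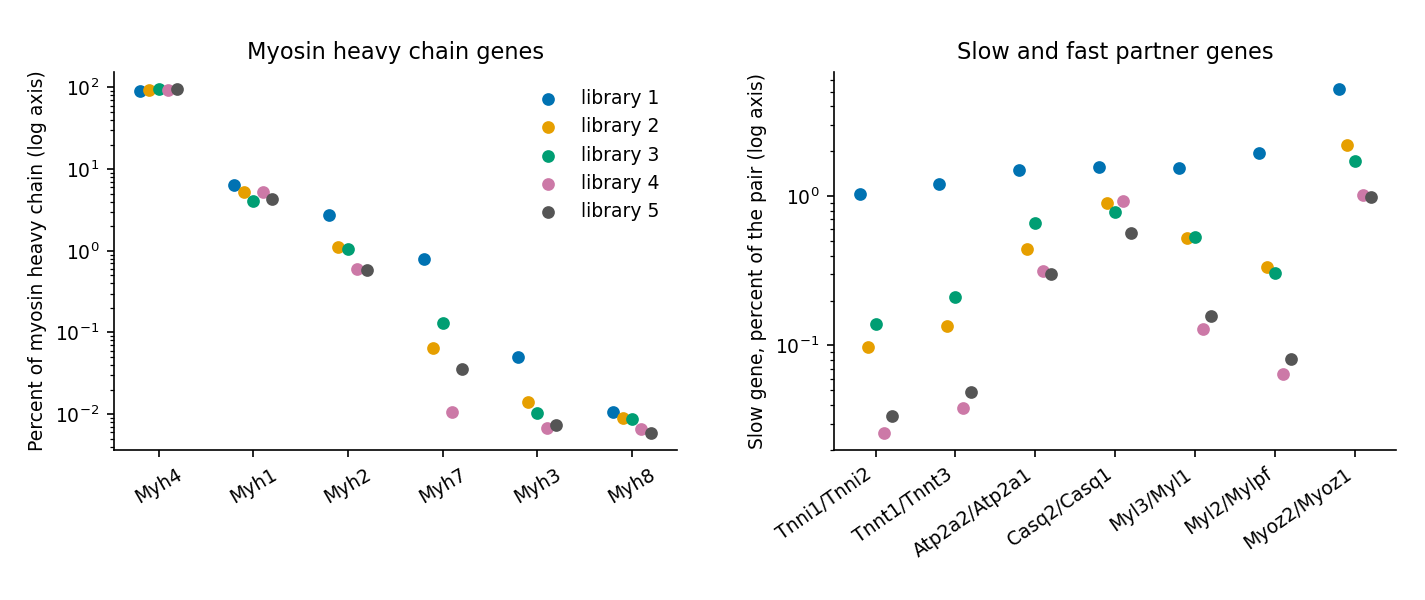
Left, percent of the myosin heavy chain level (y axis, log scale) held by 6 genes; right, percent of each slow and fast pair held by the slow gene (y axis, log scale), without the troponin C pair. Each point is 1 wild-type library; library 1 is the highest in each slow gene shown, and Myh4 holds 90.01 to 95.1%.

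The 13 slow-fibre genes varied together between libraries. Their summed level was 1776, 399, 489, 253 and 231 CPM in libraries 1 to 5, and all 13 were highest in library 1 and lowest in library 4 or 5. Of all 12936 genes with a mean count of at least 10, 18.2% were highest in library 1. Those lowest in libraries 4 and 5 made up 20.9 and 20.7%. Myh7 had 389.6, 36.95, 70.5, 6.68 and 25.9 CPM, Tnni1 90.8, 8.60, 14.3, 2.86 and 3.29 CPM and Tnnc1 84.97, 7.61, 15.96, 1.25 and 4.41 CPM in the same order. Tpm3, the slow tropomyosin, had 141, 28.96, 46.5, 13.6 and 18.3 CPM, and Csrp3, a Z-disc sensor protein, 108, 23.9, 17.2, 42.02 and 7.18 CPM. Myh7 was 12.4 times and Tnni1 15.3 times as high in library 1 as in the median of the other libraries. The fast list spread far less, from 82192 to 108663 CPM. The SD of the log2 sums was 1.18 for the slow list, 0.520 without library 1, and 0.173 for the fast list. In bulk tissue, fewer cells of a type and less RNA per cell cannot be told apart.

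Mybpc1, the slow myosin-binding protein C, also stood highest in library 1, with 1621, 694, 708, 743 and 655 CPM in libraries 1 to 5, while its fast partner Mybpc2 had 3782, 4667, 5107, 5736 and 5476 CPM. Library 1 was the highest of 5 for Mybpc1 and the lowest for Mybpc2. The list of fatty acid oxidation genes was also highest in library 1, with 3339, 2559, 2377, 2512 and 2012 CPM, and 12 of its 17 genes were highest there. Over all 12936 genes, 18.2% were highest in library 1. White adipocyte genes were highest in library 1 too, at 1126, 657, 409, 361 and 209 CPM, and fat also uses the listed genes Cd36, with 689, 503, 506, 479 and 359 CPM, and Lpl, lipoprotein lipase, with 685, 489, 322, 244 and 257 CPM. The part of fat tissue in the fatty acid oxidation list was not tested. The glycolysis and glycogen list was lower in libraries 1 and 2 than in the others, with 22282, 21662, 27279, 29248 and 29145 CPM. Genes of the citrate cycle were more even, at 3703 to 4469 CPM, with Sdha, a subunit of complex II, at a length-scaled level of 411 ± 30.8 and Pdha1, a subunit of pyruvate dehydrogenase, at 376 ± 12.3 (SD, n = 5).

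Factors that set and keep muscle identity ranged widely in level. Mef2c, a MEF2 factor, had 316, 235, 406, 516 and 497 CPM in libraries 1 to 5, lower in libraries 1 and 2 than in the other 3, and a length-scaled mean of 92.9 ± 25.9. Among the 4 MyoD family factors, Myf6, the one kept in mature fibres, had a length-scaled mean of 196 ± 23.6, Myog 16.7 ± 4.73, Myod1 3.88 ± 1.19 and Myf5 3.62 ± 0.696 (SD, n = 5). Every Myf6 library lay above every library of the other 3.

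Markers of a fasted muscle were among the high genes. Pdk4, the kinase that shuts off pyruvate oxidation, had 2952, 3153, 2755, 2164 and 2995 on the length-scaled level in libraries 1 to 5 and ranked 29 among protein-coding genes. Its variation among libraries was small, 2256 to 2862 CPM. The muscle ubiquitin ligases Trim63 (MuRF1) and Fbxo32 (atrogin-1) had 1644 ± 990.5 and 815 ± 346 (SD, n = 5), and they spread more. Trim63 had 1019, 2409, 803, 606 and 1340.2 CPM and Fbxo32 1177, 2281, 1261, 838 and 1963 CPM, both highest in library 2 and lowest in library 4. No fed muscle was analysed here, so these levels have no fed reference. Txnip, a brake on glucose uptake, had a length-scaled mean of 785 ± 142, Sqstm1, an autophagy receptor, 452 ± 106 and Bnip3, a mitophagy receptor, 424 ± 147 (SD, n = 5).

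Library 2 led most of this list. Of 35 genes linked to fasting, FoxO or glucocorticoids, 26 were highest in library 2 and 20 lowest in library 4, and the sum was 7660.2, 11246, 7139, 5929 and 8829.6 CPM. Of all 12936 genes with a mean count of at least 10, 22.4% were highest in library 2 and 20.9% lowest in library 4. Markers of other cells stood alike: of 14 leukocyte genes with such counts, 10 were highest in library 2 and 8 lowest in library 4, and the fibroblast sum was also highest in library 2 (in library 3 when scaled by plain totals) and lowest in library 4. Ddit4, a glucocorticoid-induced brake on mTORC1, had 79.2, 156, 35.3, 35.8 and 32.7 CPM, and the metallothionein Mt1 35.2, 50.3, 10.7, 10.1 and 11.9 CPM, with libraries 1 and 2 above the other 3. Cebpd, a stress-induced transcription factor filed in the deposited table as a pseudogene, had 60.6, 127, 43.1, 29.1 and 40.5 CPM. Ucp3, an uncoupling protein induced by fatty acids, had 104 to 139 CPM, with library 5 highest and library 2 lowest. Library 2 stood second in the share of the 3 dominant rows, and the part of those rows or of leukocytes and fibroblasts in the fasting genes was not tested.

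The tissue of origin and the sex of the mice were checked against markers. The Y-linked genes Ddx3y, Uty, Kdm5d and Eif2s3y were present in all 5 libraries, with Ddx3y at 133 to 169 CPM, while Xist, the RNA of the inactive X chromosome, had at most 0.298 CPM. Of 7 heart genes listed 3 were measured, and all stood near 0: Myh6 had 0.480 ± 0.167, Tnnt2 0.653 ± 0.266 and Ryr2 0.0455 ± 0.0133 on the length-scaled level (SD, n = 5), and Nppa, Nppb, Tnni3 and Myl7 are not analysed here. The skin keratin Krt10 had 0.384 to 1.01 CPM and the cartilage gene Col2a1 0.0596 to 0.912 CPM. Genes of limb position were led, per length, by Hoxd8 at 37.2 ± 11.3 and Hoxc10, a hindlimb Hox gene, at 29.1 ± 4.46, with Hoxd9 at 12.3 ± 4.29 and Hoxa10 at 7.39 ± 1.67 (SD, n = 5). The hindlimb factors Tbx4 and Pitx1 had 1.23 ± 0.315 and 0.325 ± 0.134, and the forelimb factor Tbx5 had 0.282 ± 0.201. Hoxd8 had 13.5, 27.4, 26.9, 34.5 and 34.9 CPM in libraries 1 to 5. Hoxd8 was lowest in library 1. Hoxa13, a gene of the distal limb, had 0, 0, 34, 0 and 0 counts in libraries 1 to 5, so in library 3 it was at least 7.47-fold higher than the limit that 3 counts set in any other library. Hoxa11 had 5, 2, 32, 1 and 3 counts.

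Markers of endothelium, pericytes, fibroblasts, leukocytes, satellite cells and nerve were all detected, and they differed in how evenly they spread over the libraries. The 10 endothelial genes were among the most even lists, at 354, 326, 352, 374 and 337 CPM in libraries 1 to 5. The junction proteins Cdh5 and Pecam1 stood highest per length, at 63.5 ± 1.18 and 46.4 ± 2.68 (SD, n = 5). Pericyte and smooth muscle genes summed to 457 to 568 CPM, most of it from Rgs5, a pericyte gene, with 397 ± 51.96 CPM, and satellite cell genes to 66.3 to 84.9 CPM, with Pax7, their defining factor, at 2.31 ± 0.378 CPM (SD, n = 5). Genes of the neuromuscular junction summed to 91.9 to 106 CPM. Chrne, the adult subunit of the acetylcholine receptor, had 4.09, 8.22, 6.43, 4.95 and 7.18 CPM in libraries 1 to 5, while the fetal subunit gene Chrng is not analysed here. Fibroblast genes, with the collagen gene Col3a1 at 2034, 2231, 1651, 1250.0 and 1433 CPM, summed to 3821, 4320.1, 3877, 2371 and 3199 CPM, lowest in library 4. Leukocyte genes summed to 252, 290, 237, 154 and 157 CPM, lower in libraries 4 and 5 than in the other 3. Macrophage genes such as Lyz2 (32.4 to 70.9 CPM) and Csf1r (19.3 to 37.6 CPM) were among them, and the T cell gene Cd3e had at most 0.119 CPM. Globin and other erythroid genes summed to 79.7, 76.97, 107, 57.7 and 42.04 CPM, and all 5 genes measured were highest in library 3 and lowest in library 5. Over all 12936 genes, 15.5% were highest in library 3 and 20.7% lowest in library 5.

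The lists of white adipocytes, tendon and Schwann cells differed several-fold between libraries, each with another library on top. All 8 white adipocyte genes were highest in library 1, 7 of them lowest in library 5. Over all 12936 genes, 18.2% were highest in library 1 and 20.7% lowest in library 5. Adipoq, the hormone adiponectin, had 95.2, 46.2, 24.1, 18.1 and 10.2 CPM, Cfd, the fat-cell protease adipsin, 407, 257, 125, 95.8 and 55.2 CPM and Lep, leptin, 5.59, 0.307, 0.203, 0.715 and 0.0659 CPM. The desaturase gene Scd1 had 983, 266, 111, 101 and 80.2 CPM, and Pck1, the enzyme of glyceroneogenesis, 131, 61.9, 23.5, 18.002 and 14.96 CPM, again highest in library 1. The slow-fibre list was highest in library 1 too, and so was the share of the 3 dominant rows (33.9% of its counts). The part of fat tissue or of those rows in the slow-fibre values was not tested. Of the brown-fat list Ucp1 is not analysed here, and Cidea had 0.725 to 2.23 CPM.

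Of the 6 tendon genes measured, 5 were highest in library 3, and Scx, a tendon transcription factor, was highest in library 1 with 1.29, 0.768, 1.27, 0.656 and 0.329 CPM. Over all 12936 genes, 15.5% were highest in library 3. Fmod, the collagen-binding fibromodulin, had 6.24, 4.92, 78.4, 4.71 and 23.5 CPM in libraries 1 to 5, Tnmd, tenomodulin, 1.86, 2.07, 19.05, 2.15 and 3.56 CPM and Kera, keratocan, 1.51, 0.154, 15.1, 0.775 and 3.36 CPM. Angptl7, named because it was among the genes that varied most, had 6.60, 8.30, 68.1, 2.98 and 16.6 CPM. Library 5 came next after library 3 in Fmod, Tnmd, Kera and Angptl7. The tendon list summed to 36.6, 37.2, 167, 42.5 and 76.6 CPM, and the SD of the log2 sums went from 0.942 to 0.501 without library 3. This is also the library with Hoxa13 counts, and the part of tendon in those counts was not tested. Of the tendon list Comp, Chad and Cilp2 are not analysed here, and of the cartilage and bone list Col10a1 had 2.44 to 3.56 CPM.

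Schwann cell genes were highest in library 5. Prx, the myelin protein periaxin, had 5.16, 5.07, 5.42, 3.52 and 38.5 CPM in libraries 1 to 5, and Ncmap, a myelin membrane protein, 0.860, 1.61, 1.11, 1.07 and 6.59 CPM. Sox10, the defining factor of Schwann cells, had 0.717, 0.845, 1.06, 0.417 and 2.37 CPM and S100b 0.860, 1.08, 1.32, 0.536 and 3.56 CPM. All 5 genes of the list that are reported here were highest in library 5, as were 21.3% of all 12936 genes. The list summed to 8.03, 9.30, 9.57, 5.72 and 52.8 CPM. The sum in library 5 was 6.10 times the median of the other 4. Without library 5 the SD of the log2 sums went from 1.25 to 0.340. Igfn1, a sarcomere protein gene that is not of this list, was also highest in library 5, with 2.29, 13.2, 2.58, 19.3 and 65.04 CPM.

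**Figure D4:**
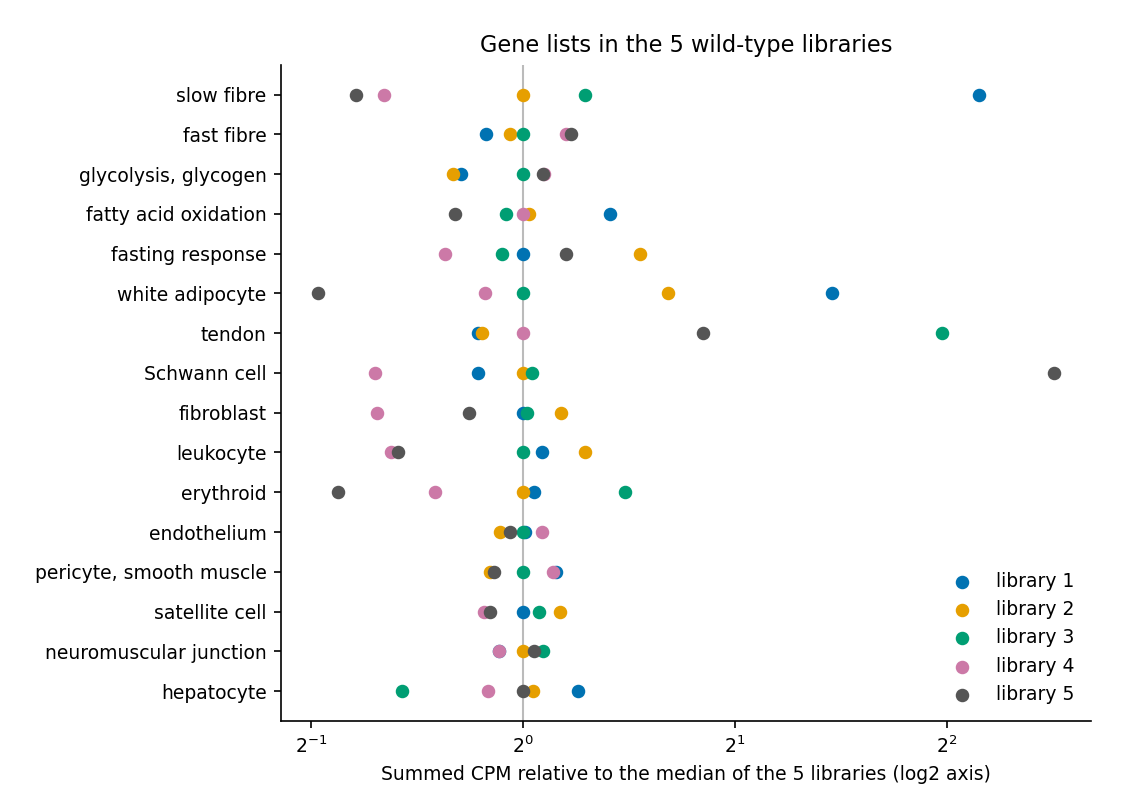
Summed CPM of 16 gene lists in each wild-type library, relative to the median of the 5 (x axis, log2 scale); each point is 1 library. Library 1 is highest for slow-fibre and white adipocyte genes, library 3 for tendon and library 5 for Schwann cell genes. Endothelial genes run from 326 to 374 CPM.

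Transcripts of liver genes were detected at low levels. Alb, serum albumin, had 37.6, 48.9, 41.9, 70.3 and 106 CPM in libraries 1 to 5, and 12 of 14 listed genes were highest in library 5, among them Cps1, a urea cycle enzyme, at 3.66, 6.07, 5.77, 9.54 and 13.5 CPM and the plasma protein Ahsg at 3.66, 4.61, 4.86, 8.05 and 10.2 CPM. Over all 12936 genes, 21.3% were highest in library 5. Cyp2e1, a cytochrome that fat also expresses, had 186, 133, 69.1, 69.9 and 37.8 CPM, highest in library 1, and it made up most of the sum of the list in libraries 1 and 2, which was 247, 213, 139, 184 and 206 CPM. The summed list was highest in library 1, unlike most of its genes. Where these transcripts came from was not tested.

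Most genes varied little among the libraries. Variation is given as the SD of the normalized counts beyond Poisson noise, divided by the mean, for the 12936 genes with a mean count of at least 10. The median was 0.109, the lowest 10% of genes were at 0 and the highest 10% lay above 0.304. In 17.4% of genes the spread did not exceed Poisson noise. Of the genes with at least 100 counts on average, 796 were in that state. The one with most counts was Hnrnpk, an RNA-binding protein, at 119.8, 120.5, 119.8, 116 and 115 CPM, followed by Tcp1, a chaperonin subunit, at 87.1 to 91.6 CPM and Brwd1 at 82.8 to 88.3 CPM. Others of this kind were Vps35 of the retromer, Rac1, a small GTPase, Cct2, a chaperonin subunit, and Mff, which recruits the mitochondrial fission machinery. These genes were picked by their counts among the genes tied at a variation of 0, after values had been seen. With 5 libraries, an estimate of 0 does not show that a gene has no variation beyond Poisson noise.

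A small set of genes varied strongly. The variation was above 0.5 in 329 genes, 2.54% of those measured, and above 1 in 38. Of the 329 genes, 140, 65, 31, 27 and 66 were highest in libraries 1 to 5. The split over all 12936 genes was 18.2, 22.4, 15.5, 22.5 and 21.3%. Among genes with a mean count of at least 100, the 15 that varied most included Tnni1, Tnnc1, Myh7, Tnnt1, Myl2, Fmod, Angptl7, Prx, Igfn1, Scd1, Tpm3, Csrp3, Pck1 and Npr3. The variation was 1.57 for Tnni1, 1.34 for Fmod and 1.25 for Scd1. Of these, Tnni1, Tnnc1, Myh7, Tnnt1, Myl2, Tpm3 and Csrp3 belong to the slow-fibre list, Prx to the Schwann cell list and Fmod to the tendon list. Npr3, the clearance receptor of natriuretic peptides, had 38.1, 8.45, 10.1, 6.02 and 6.92 CPM, again highest in library 1. The median variation was 1.01 for the slow-fibre list, 1.19 for tendon, 0.820 for white adipocytes and 0.791 for Schwann cells. It was 0.160 for the fast list, 0.106 for the citrate cycle and 0.115 for endothelium.

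**Figure D5:**
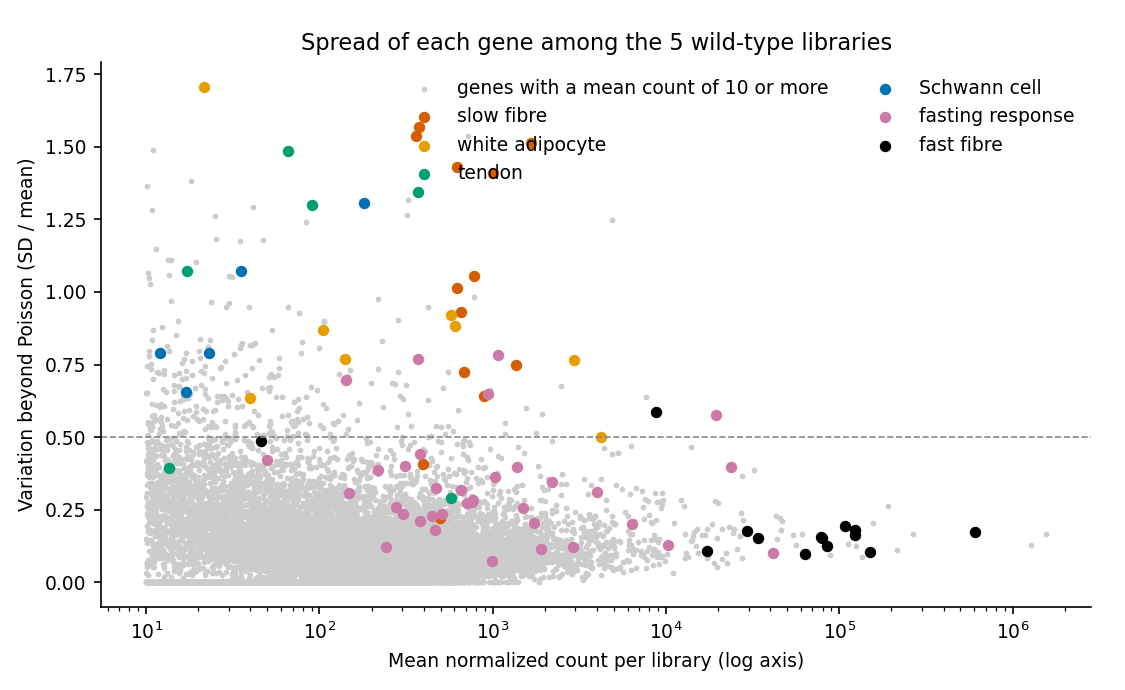
Variation beyond Poisson (y axis, SD over mean) against the mean normalized count (x axis, log scale) for 12936 genes; colours mark 6 gene lists and the dashed line is at 0.5. Slow-fibre, Schwann cell, tendon and white adipocyte genes lie above most genes of like count, while the fast genes with the highest counts stay low.

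The slow-fibre, white adipocyte, tendon, Schwann cell and fasting lists had the same highest and lowest library under TMM, DESeq2 size factors, plain totals and totals outside the 3 rows. The highest library was the same under these 4 scalings in 21 of 31 lists, and it changed for the fast, glycolysis, endothelial and fibroblast lists among others.

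By size of difference, 33 genes were at least 4-fold above the median of the other 4 in library 1, and 5, 11, 2 and 17 in libraries 2 to 5. The numbers at least 4-fold below were 5, 7, 2, 7 and 6. These numbers depend on the scaling and the filter. With plain totals, 19, 1, 13, 2 and 19 genes were at least 4-fold above, so libraries 1 and 5 stood level. With a mean count of at least 50 in place of 10, the numbers above were 20, 2, 8, 0 and 4. Those high in library 5 included the myelin genes Gldn, Ncmap, Cldn19 and Fa2h besides Prx. Those high in library 3 included the collagen genes Col11a1 and Col11a2 besides Fmod, Kera and Tnmd. Slc15a2, a peptide transporter, split the libraries otherwise, with 0.717, 0.307, 5.77, 7.81 and 0.329 CPM: libraries 3 and 4 were high and the others low. Gldn, Cldn19, Fa2h, Col11a1, Col11a2 and Slc15a2 were chosen after their values were seen. Across the 12936 genes, which are not independent, the libraries resembled each other closely, with Pearson correlations of log2 CPM from 0.970 for libraries 2 and 4 to 0.983 for libraries 3 and 4.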

How the data were processed

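Values are whole-number counts of RNA-seq reads per gene, not normalized, deposited by the authors. HTSeq 0.6.1, TopHat2 2.1, DESeq2 1.10, Bowtie2 2.2.6 and SAMtools 1.2 are named, with no role, in the submitters' processing notes. The sources used here do not state the counting settings or the strand. The deposited table is held in part (15883 rows, with 23 names turned into dates and left so); mean, fold and p columns, which mix both genotypes, were not used. Gene types are the authors'.

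From the counts of the 5 wild-type libraries, CPM was computed with TMM in edgeR 4.0.16 (R 4.3.3), with a prior count of 2 for log2 values. Length-scaled levels use merged exon lengths of GENCODE M21 (GRCm38.p6), found for 99.7% of genes. Shared 50-base words were sought among GENCODE transcripts. The estimate of variation was tested on simulated counts in which most genes had the same set variation. The real genes differ in variation, so that test does not cover their spread. Pairs of libraries differed beyond sampling noise (chi-square per degree of freedom from 11.99 to 27.4), so each was counted once.

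The members, the 31 gene lists and the naming rule were chosen with earlier results of these data known. The rule names the 25 highest genes by level, the 10 highest by share of counts, the 15 most and 10 least variable genes with a mean count of at least 100, all myosin heavy chains and slow or fast partners, up to 4 of the highest members of each list and the leading genes of each gene type. Some genes it takes, and some members of the lists, are left out and not reported here. All other genes named were chosen after their values were seen. Alternatives were other size factors, filters, prior counts, denominators and lengths, and each library left out.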

Additional observations from a re-analysis of the deposited data

Results flagged for a closer look

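In 14 of 121 values tested, 1 library stood apart. Its gap to the nearest of the others, divided by the range of the 5, exceeded Dixon's 95% critical value of 0.71. Ratios of genes and lists were taken on log2 CPM, and those of shares on plain percents. The CPM printed are not on the log2 scale. No value was tested on both scales, and another scale can give other flags. Chance flags about 1 in 20 groups of values, but these values are not independent, and many of the genes were named because they varied most, so that rate is no reference for their number. In library 1 the ratio was 0.844 for the Myh7 share and 0.751 for the Myh2 share of the myosin heavy chains, 0.861 for Mybpc1 and 0.722 for Npr3, all high, and 0.729 for Hoxd8, low. In library 3 it was 1 for Hoxa13 and 0.728 for Tnmd, both high, and 0.761 for Myh1, low, with 2321, 2191, 1586, 2425 and 2301 CPM in libraries 1 to 5. Hoxa13 had 0 counts in every library but library 3, so its ratio could only be 1. In library 4 the ratio was 0.820 for the percent of all counts in mitochondrial rRNA, high, but 0.211 outside the 3 dominant rows. In library 5 it was 0.769 for the Schwann cell list, 0.822 for Prx, 0.883 for the percent of counts outside the 3 dominant rows in titin (0.569 for the percent of all counts), 0.730 for Neb, with 14828, 16312, 15390, 16473 and 21894 CPM, and 0.781 for the glucose handling list, with 1018, 998, 1040.3, 1042 and 1216 CPM. All values of library 5 were on the high side.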

How the results depend on the processing

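Of 969 values recomputed for 126 results, 823 moved by less than the spread among the libraries and 146 moved by more. For counts of genes, median spreads and SDs of log2 sums the limit was 1.5 times. Leaving out 1 of 5 libraries can hardly shift a mean by the SD of the 5. Means recomputed in that way had little room to move, so 823 is no measure of robustness. These values carry no sign that could reverse. The library with the highest sum stayed the same under 4 scalings in 21 of 31 lists. Mitochondrial rRNA held 12.2% of the counts outside the 3 dominant rows. As shares of all counts, mitochondrially encoded genes held 11.8%, the sarcomere list 15.7% and glycolysis and glycogen genes 2.62%. Outside the 3 rows and mitochondrial genes, the sarcomere list held 24.0% and glycolysis and glycogen genes 3.99%. With a mean count of at least 1 in place of 10, 873 genes had a variation above 0.5, and with at least 50 there were 135. In place of the median variation of 0.109, the square root of the common dispersion of edgeR was 0.172. That of its median trended dispersion was 0.166. Both came from a fit that kept the 3 dominant rows, and both moved by more than 1.5 times. Leaving out each library in turn gave 321 to 379 genes above 0.5, a median variation of 0.0948 to 0.112, 93.1 to 94.4% for the Myh4 share and 353 to 723 CPM for the slow-fibre list, lowest without library 1. Of the 25 highest genes, 24 to 25 stayed when a library was left out, 25 with the longest transcript as length and 20 with no length. Plain totals shifted the median gene of a library by up to 0.163 on the log2 scale against TMM, and DESeq2 size factors by up to 0.005. No paired analysis was possible because the columns carry no pairing and there is 1 group. The number of libraries, 5, limits the precision of every SD, and genes at a few counts, such as Hoxa13, are limited by counting error.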
